A study of Mus musculus and Homo sapiens with 22 samples.

Results

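RNA from the nucleoplasm of mouse embryonic stem (mES) cells of the V6.5 line was probed by icSHAPE in living cells (in vivo) and after the same fraction's RNA had been purified and refolded (in vitro). Transcripts listed in both deposited files with at least 100 nucleotides scored in both were taken as members, and 8608 of the 9699 transcripts listed in both files qualified. Over the 6 mES files of the study, which also cover chromatin and cytoplasm, 17092 transcripts were listed. The series holds 22 samples in all. The rule used only the number of scored nucleotides and not the scores, and the scored positions of the in vivo and in vitro files were identical in 9698 of the 9699 transcripts. Members were between 136 and 18099 nt long, with a median of 1438.5 nt, and contributed 11598197 nucleotides, a median of 734 each.

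In icSHAPE the acylating reagent NAI-N3 attacks the 2′-hydroxyl of flexible nucleotides, and each adduct stops reverse transcription and can be tagged through its azide for enrichment. Unpaired nucleotides therefore tend to score high, and nucleotides held in a helix or covered by protein tend to score low. In living cells an RNA meets RNA-binding proteins, helicases and the processing machinery, whereas a purified, refolded RNA folds without them in the chosen salt. The nucleoplasm is the soluble part of the nucleus, through which processed mRNAs and many noncoding RNAs pass before export or use.

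The in vivo sample was V6.5 cells incubated with NAI-N3 before fractionation, with RNA then taken from the nucleoplasm. The in vitro sample was nucleoplasmic RNA that was column-purified, heated, cooled, refolded in a HEPES buffer with magnesium and sodium chloride, and then given NAI-N3. Solvent-treated (DMSO) samples entered the scoring of both, and that of the same fraction was not analysed here. Cells for both groups were grown with serum and LIF, and ribosomal RNA was depleted before library construction. Each group held 1 file, and whether it pools replicate cultures is not stated, so the values below describe these files, with no test between samples and no replicate error. Each printed interval is an exact 95% binomial interval over transcripts, covers counting only, and is too narrow because transcripts share genes and sequence.

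The files give Ensembl transcript identifiers, which the annotation used here does not pair with genes. The members were therefore described by length, abundance and position. Neither stem cell nor nuclear marker RNAs were looked up, so the fraction label was not checked against them. The in vivo file held 12194384 scored nucleotides in 12060 transcripts, against 12871282 in 11167 transcripts in the in vitro file. Scores ran from 0 to 1, with 37.97% at exactly 0 and 4.22% at 1 in vivo, against 38.1% and 3.85% in vitro. The sources used here do not give the read depth behind a score. At the edge of the rule, 96 members with 100 to 109 scored nucleotides had median mean scores of 0.124 in vivo and 0.143 in vitro, and 119 transcripts with 90 to 99, which were left out, had 0.133 and 0.147.

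The first comparison asked how reactive each RNA was in the cell relative to the same RNA refolded alone. The mean score per transcript had a median of 0.190 in vivo and 0.180 in vitro. The median difference, in vivo minus in vitro, was 0.00815, with quartiles of -0.00661 and 0.0275. Of the 8608 members, 5566 were higher in vivo, or 64.7% (63.6 to 65.7). Large differences were uncommon in both directions: 887 members (10.3%) were at least 0.05 higher in vivo and 152 (1.77%) at least 0.05 lower. The overall shift was thus small next to the spread between transcripts.

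On 2 further scales the majority kept its direction. With scores replaced by ranks among all scored nucleotides of the file, scaled from 0 to 1, 59.3% of members were higher in vivo, and the median of the mean rank was 0.497 in vivo and 0.489 in vitro. Over nucleotides above 0 in both files, 64.6% were higher, with medians of 0.350 in vivo and 0.333 in vitro. A transcript could still turn from scale to scale. Of the members, 3860 (44.8%) were higher in vivo on all 3 scales, 1750 (20.3%) were lower on all 3, and 2998 (34.8%) were mixed. Taken apart, the odd and the even nucleotides pointed the same way in 81.9% of members.

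**Figure D1:**
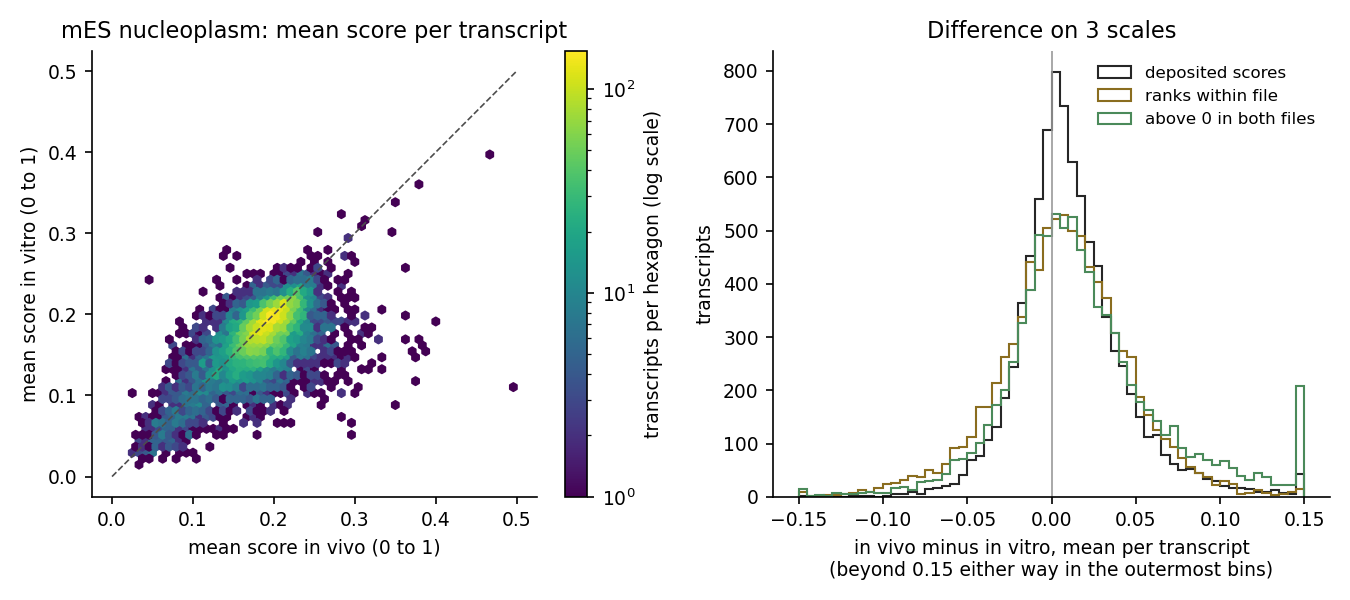
Left, mean icSHAPE score of each of the 8608 members, in vivo on the horizontal and in vitro on the vertical axis (0 to 1, no units), coloured by the number of transcripts per hexagon on a log scale; the dashed line marks equal values. Right, number of transcripts by in vivo minus in vitro difference on the 3 scales, with differences beyond 0.15 in either direction collected in the outermost bins; all 3 distributions centre just above 0, with medians of 0.00815 for deposited scores, 0.00768 for ranks and 0.0123 for nucleotides above 0.

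The direction of a transcript moved with its abundance ratio between the files. The files give 1 abundance value per transcript in a unit not stated in the sources used here, and the log2 ratio of in vivo over in vitro abundance had a median of 0.15 over members. In the decile of members with the lowest ratio, at or under -0.24, 22.6% were higher in vivo by deposited scores and 7.90% by ranks. In the decile with the highest ratio, from 0.51 upward, 84.0% were higher by deposited scores and 91.8% by ranks. Read against the 64.7% and 59.3% over all members, the lowest decile lay far below and the highest decile far above.

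Zero scores moved with the same ratio. The median share of zeros per transcript in the lowest decile was 47.4% in vivo and 36.4% in vitro. In the highest decile it was 27.7% in vivo and 38.3% in vitro. Over nucleotides above 0 in both files, the percent of members higher in vivo stayed between 60 and 70.2 in every decile. Zeros do not enter these means, but the zeros of each file set which nucleotides do, so this scale is not free of them. The part of abundance and read depth in the deposited-score and rank results was not tested.

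**Figure D2:**
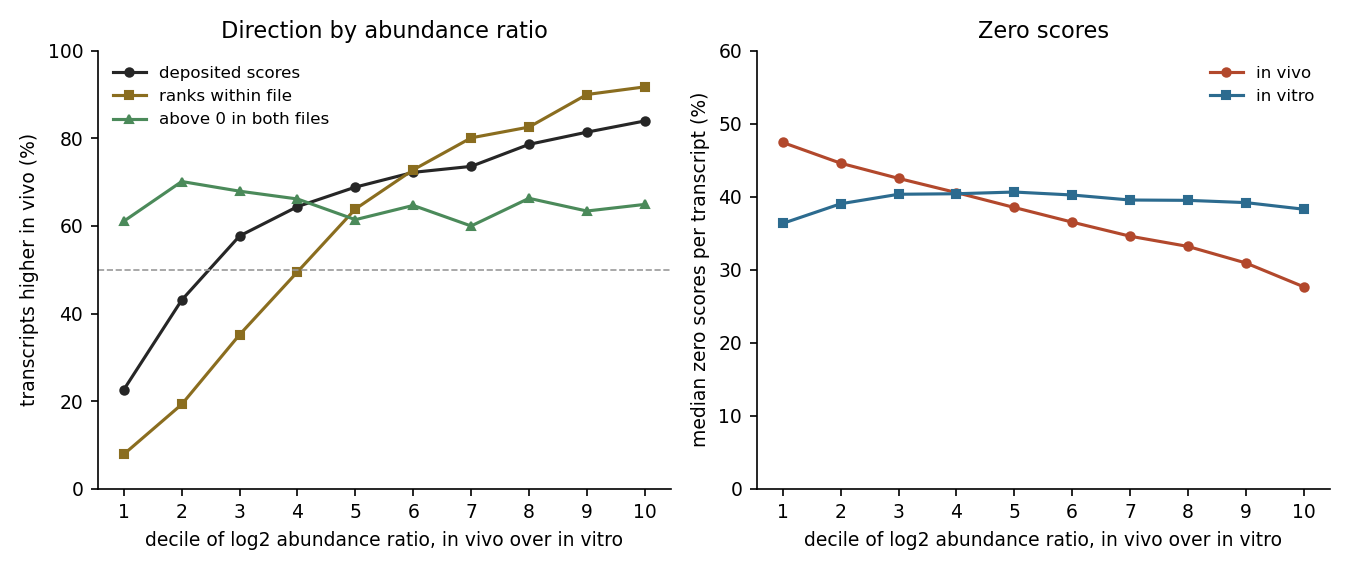
Members in deciles of their log2 abundance ratio (in vivo over in vitro), lowest ratio at the left. Left, percent of members with the higher mean in vivo on each of the 3 scales, with a dashed line at 50; it climbs from 22.6 to 84.0 for deposited scores and from 7.90 to 91.8 for ranks and stays between 60 and 70.2 for nucleotides above 0. Right, median percent of zero scores per transcript in each file, which ranges from 47.4 to 27.7 across the deciles in vivo.

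Short RNAs departed from the rest. Of 102 members under 200 nt, a size range that in mammals includes many snoRNAs and small nuclear RNAs, 17.6% were higher in vivo by deposited scores, 8.82% by ranks and 43.1% over nucleotides above 0. Their median mean score was 0.129 in vivo and 0.158 in vitro, with 56.3% of zeros in vivo and 44.7% in vitro. The 95 members of 203 to 298 nt were near even, at 47.4% higher in vivo by deposited scores. Members of 500 nt to under 1000 nt stood at 65.0%, and those of 2000 to 3999 nt at 71.7%, the highest of the 7 length classes. Among the 1264 members of 4000 nt and more the scales parted: 58.5% were higher by deposited scores, 42.6% by ranks and 73.2% over nucleotides above 0. In that class zeros made up a median of 41.9% in vivo and 40.6% in vitro, and the part of zeros in this split was not tested.

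Abundance itself went with a narrower range of directions than the ratio. Across deciles of in vivo abundance, the percent higher in vivo by deposited scores lay between 63.3 and 67.7 in the lower 9 deciles and was 54.7 in the highest. The profiles were more alike in abundant RNAs. The median Pearson r along a transcript was 0.503 in the lowest decile of abundance and 0.711 in the highest.

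At single nucleotides the files differed in both directions about equally. Of the shared nucleotides, 38.7% scored higher in vivo, 37.8% scored lower and 23.5% were equal, most of the last being 0 in both. The mean over all of them was 0.197 in vivo and 0.191 in vitro. A nucleotide was 0 in both files in 21.8% of cases and above 0 in both in 46.6%, so that 68.4% kept their state. The remaining nucleotides were split evenly, with 16.02% at 0 only in vivo and 15.6% at 0 only in vitro. Zeros made up 37.9% of the shared nucleotides in vivo and 37.4% in vitro. Unrelated files with these shares would also keep the state of many nucleotides, so the 68.4% is not all agreement between profiles. Among nucleotides above 0 in both files, 49.7% were higher in vivo and 3.49% were equal.

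Strong reversals were a small share of all shared nucleotides. A score of at least 0.5 in vivo met a 0 in vitro at 1.38% of nucleotides, and a 0 in vivo met a score of at least 0.5 in vitro at 1.31%. They were a larger share of the high scores. Of nucleotides between 0.6 and 0.8 in vivo, 11.9% were at 0 in vitro, and of those between 0.8 and 1, 9.11%. In the other direction, 5.14% of nucleotides at 1 in vitro were at 0 in vivo. Of nucleotides at 0 in vivo, 57.7% were also 0 in vitro and 0.533% stood at the ceiling of 1. Of nucleotides at 1 in vivo, 35.4% were also at 1 in vitro and 5.38% were at 0. Of nucleotides between 0.2 and 0.4 in vivo, 21.8% fell in the same class in vitro, while 23.01% were at 0.

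**Figure D3:**
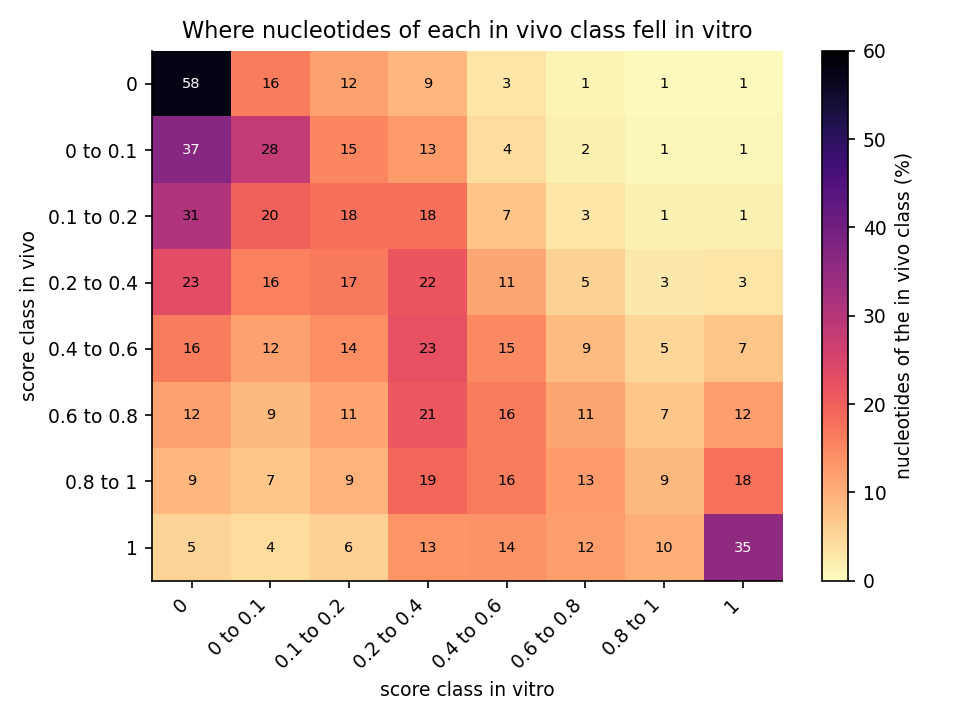
Nucleotides of all members sorted into 8 score classes, in vivo down the page and in vitro across. Each square gives the percent of the nucleotides of that in vivo class that fell in the in vitro class, so rows add up to the whole; the darkest squares are 0 in both files (57.7%), an in vivo score from 0 to 0.1 against 0 (36.7%) and 1 in both (35.4%).

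The direction also differed by position within the transcript. In the 5070 members of at least 1000 nt, the first 200 nt, the middle (at least 500 nt from both ends) and the last 200 nt were each averaged where at least 50 nucleotides were scored. Over the first 200 nt the median mean score was 0.193 in vivo and 0.224 in vitro, and 28.6% (26.9 to 30.3) of 2751 transcripts were higher in vivo. Over the middle the medians were 0.196 and 0.191, with 55.9% (54.5 to 57.4) of 4712 higher in vivo. Over the last 200 nt they were 0.189 in vivo and 0.126 in vitro, with 86.4% (85.3 to 87.4) of 3950 higher in vivo. Refolded RNA was thus the more reactive at the start and the cellular RNA at the end, with little between them in the body.

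The same order held on the other scales. By ranks, 26.2% of transcripts were higher in vivo over the first 200 nt, 50.2% over the middle and 83.9% over the last 200 nt. Over nucleotides above 0 in both files the values were 30.7%, 57.5% and 85.6%. Zeros followed: in the last 200 nt they made up a median of 34.1% in vivo and 44.7% in vitro, and in the first 200 nt 40.4% in vivo and 36.2% in vitro. Of 2130 transcripts with both end zones measured, 1365 (64.1%) were lower in vivo at the start and higher at the end, and 127 (5.96%) showed the opposite pair.

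The end zones kept their direction in every class of abundance ratio and length. Across 5 equal classes of the log2 abundance ratio, the percent higher in vivo ran between 23.9 and 32.1 in the first 200 nt and between 75.6 and 93.2 in the last 200 nt. In the middle it ran from 25.9 in the lowest class to 73.9 in the highest and so crossed the even mark. By length, transcripts of 1000 nt to under 2000 nt, of 2000 nt to under 4000 nt and of 4000 nt and more gave 32.1%, 28.01% and 23.6% in the first 200 nt and 81.0%, 88.4% and 90.4% in the last.

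The in vitro profile sloped more than the in vivo profile. In members of at least 1000 nt cut into 10 equal parts, the mean score in vivo was 0.209 in the first part and 0.192 in the last. In vitro it was 0.229 in the first and 0.148 in the last. In 2023 transcripts with all 3 zones measured, the in vivo medians were 0.196 in the first 200 nt, 0.202 in the middle and 0.195 in the last 200 nt. The in vitro medians were 0.230, 0.203 and 0.133 in the same order. The start exceeded the end in 50.2% of these transcripts in vivo and in 89.1% in vitro, and the decline from start to end was steeper in vitro in 1757 of them (86.9%).

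Averaged by distance, the difference was widest close to the ends. Between 30 and 40 nt from the start the mean score was 0.196 in vivo and 0.247 in vitro, a difference of -0.0509. By 300 to 400 nt from the start the difference was -0.00269. Between 50 and 75 nt from the end the mean was 0.218 in vivo and 0.122 in vitro, a difference of 0.0963. At 200 to 300 nt from the end it was 0.0294, and at 700 to 1000 nt it was 0.00681. Very near the end, between 30 and 40 nt, both files were low, at 0.115 in vivo and 0.0914 in vitro. The first 6 and last 30 nt of members carried no score. The sources used here state neither how ends were treated in scoring nor whether the listed ends are the ends in these cells, and their part in the pattern was not tested.

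**Figure D4:**
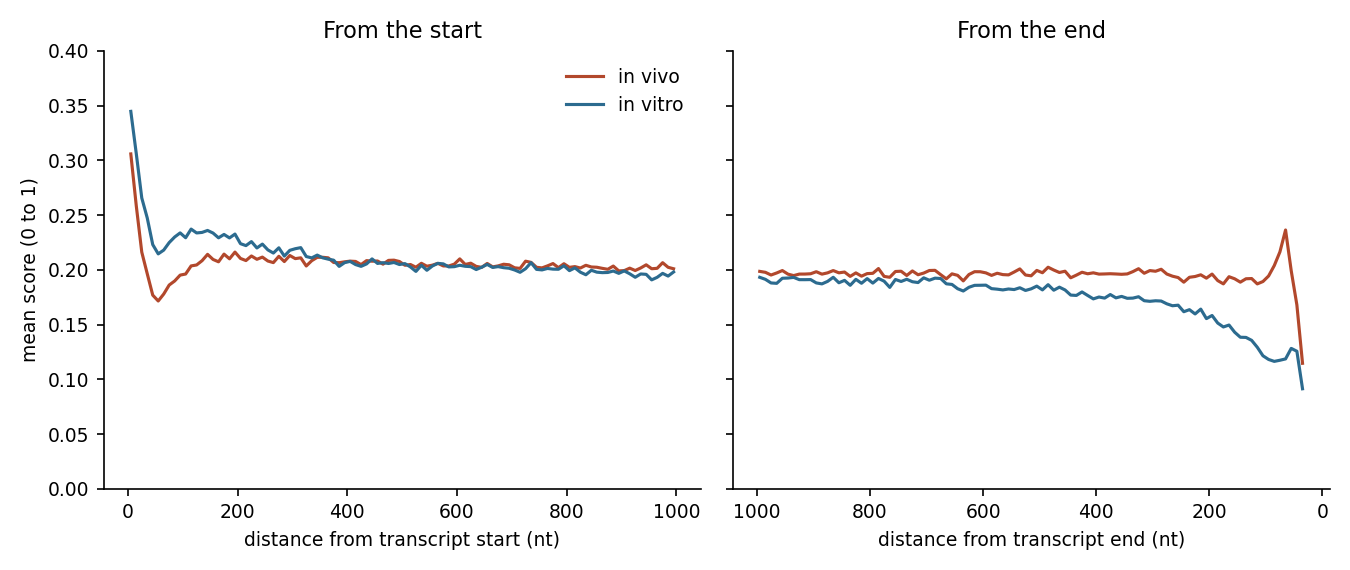
Mean score of members of at least 1000 nt by distance from the transcript start (left) and end (right, with the end at the right margin), in steps of 10 nt, in vivo and in vitro. The in vitro line lies above the in vivo line near the start and below it near the end, with the widest gap between 50 and 75 nt from the end (0.218 in vivo, 0.122 in vitro).

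Members of 300 nt to under 1000 nt showed a like gradient when each was cut into 10 equal parts. In the first of these the mean score was 0.219 in vivo and 0.242 in vitro, and in the ninth 0.178 in vivo and 0.142 in vitro. In the last part, at the end itself, it was 0.146 in vivo and 0.127 in vitro, a narrower difference of 0.0190 against 0.0358 in the ninth. Members under 300 nt did not follow it: their mean was 0.103 in vivo and 0.162 in vitro in the eighth of 10 parts, and 0.0945 against 0.148 in the ninth.

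Local differences were counted in windows of 30 nt with at least 25 scored nucleotides. Of 359052 windows, 4.87% were at least 0.15 higher in vivo and 3.27% at least 0.15 lower. In the first 200 nt of transcripts of at least 1000 nt, 3.08% were higher and 9.24% lower. In the last 200 nt, 15.4% were higher and 0.983% lower, and in the middle 3.81% and 3.24%. A single RNA often held windows of both kinds: 5390 members (62.6%) had a higher window, 3641 (42.3%) a lower one and 2975 (34.6%) both, with longer RNAs offering more windows for either.

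Profile shape was partly shared between the files. Across the nucleotides of a transcript, Pearson's r had a median of 0.562, with quartiles of 0.486 and 0.645 and a range of 0.0751 to 0.946. Nucleotides of 1 transcript are not independent, and both scores draw on DMSO samples, per the series' design text. The r was highest in members of 203 to 298 nt (median 0.686) and lowest in those under 200 nt (0.481), and above 300 nt it was lower in each longer class, down to 0.495 at 4000 nt and more.

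Neighbouring nucleotides of nucleoplasmic RNA resembled each other more in vitro than in vivo. In 5388 members with at least 500 scored nucleotides, the median correlation of a score with that of the next nucleotide was 0.274 in vivo and 0.402 in vitro. It was the higher in vitro in 5209 of them (96.7%). At a distance of 5 nt the values were 0.0530 in vivo and 0.0562 in vitro, so the gap had nearly closed. The other fractions did not share this order evenly. In chromatin the correlation with the next nucleotide was 0.427 in vivo and 0.349 in vitro, and it was the higher in vitro in 22.6% of 1022 transcripts. In cytoplasm it was 0.345 in vivo and 0.366 in vitro, and the higher in vitro in 70.1% of 3617.

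The profiles were also slightly skewed against each other along the strand. The in vivo score correlated best with the in vitro score of the same nucleotide, with a median of 0.544. One nucleotide downstream, toward the end of the transcript, the correlation with the in vitro score was 0.302, and 1 nt upstream it was 0.228. The downstream value was the larger in 5252 of 5388 members (97.5%). Measured likewise, 93.6% of 3617 transcripts in cytoplasm and 63.1% of 1022 in chromatin had the larger downstream value. Between nucleoplasm and cytoplasm within 1 treatment, the percent was 85.0 in vivo and 59.9 in vitro. In nucleoplasm the downstream excess was not confined to the next nucleotide. The median correlation of the in vivo with the in vitro score was 0.0375 at 5 nt downstream and 0.0059 at 5 nt upstream. At 10 nt it was 0.00256 downstream and -0.0275 upstream. Whether the libraries differ in where reads were taken to stop was not tested.

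A repeat with a period of 3 nt, the length of a codon, was placed alike in both files where it was strong in both. Over all 5388 members with at least 500 scored nucleotides, the phase differed by under 60 degrees in 78.6%, against 52.2% at a neighbouring frequency, and the same one of the 3 positions was the highest in 75.3%. Strength was taken as the power at that period over the mean power at 24 neighbouring frequencies, and 5 or more was called strong. Of the 5388 members, 1095 (20.3%) were strong in both files, 880 (16.3%) in vivo only and 199 (3.69%) in vitro only. Among those strong in both, the phase differed by under 60 degrees in 1092 (99.7%), with a median difference of 12.9 degrees. At a neighbouring frequency 55.4% of the same transcripts met that limit. In 98.1% of them the highest of the 3 positions was the same in both files.

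The amplitude was larger in the cell where the period was strong in both files. In the 1095 transcripts, the mean scores of the 3 positions spanned a median of 0.0655 in vivo and 0.0433 in vitro. Over all 5388 members the spans were 0.0342 and 0.0237. In the 880 strong in vivo only they were 0.0529 and 0.0258. The 199 strong in vitro only had the opposite order, at 0.0315 in vivo and 0.0406 in vitro. The orders of the 880 and the 199 were largely set by how the classes were chosen, because strength and span measure the same repeat. No conclusion on amplitude is drawn from them. Where the period was strong in vivo but under 2 in vitro (313 transcripts), the phase matched in 85.0%, against 57.5% at a neighbouring frequency. In the 54 of the opposite kind it matched in 83.3%, against 55.6%. Both shares were near the 78.6% over all members examined. Reading frames were not used here, so the highest position was not assigned to a codon position.

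The nucleoplasm was set beside the other fractions over the same nucleotides. In all 6 mES files, 937 members had at least 100 nucleotides in common. Over these the median mean score in nucleoplasm was 0.197 in vivo and 0.189 in vitro, with 58.6% (55.4 to 61.8) of transcripts higher in vivo. In chromatin it was 0.239 in vivo and 0.173 in vitro, with 85.9% higher, and in cytoplasm 0.214 and 0.174, with 82.3% higher. The in vivo minus in vitro difference was lower in nucleoplasm than in chromatin for 843 of the 937 transcripts (90.0%), and lower than in cytoplasm for 759 (81.0%). Zeros ran alongside: their median share was 23.8% in vivo and 25.5% in vitro in nucleoplasm, 13.8% and 43.5% in chromatin, and 19.2% and 33.8% in cytoplasm. The pairs of files were also unlike in content. Nucleoplasm listed 12060 transcripts in vivo and 11167 in vitro, chromatin 11667 and 3247, and cytoplasm 10568 and 6288. Median abundance per file was 16.9 in vivo and 17.2 in vitro in nucleoplasm, 10.4 and 24.9 in chromatin, and 21.8 and 34.9 in cytoplasm. The part of zeros and of abundance in the differences between fractions was not tested. The differences between fractions above are on deposited scores only. Over the middle zone, with each fraction's own transcripts, 55.9% were higher in vivo in nucleoplasm, 78.6% in chromatin and 92.4% in cytoplasm by deposited scores. By ranks the values were 50.2%, 62.3% and 62.4%. Over nucleotides above 0 in both files they were 57.5%, 53.96% and 66.9%, so that chromatin lay below nucleoplasm on this scale.

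At the transcript ends the order of the fractions depended on the scale. By deposited scores, over the first 200 nt 28.6% of transcripts were higher in vivo in nucleoplasm, against 62.8% in chromatin and 68.3% in cytoplasm. On the other scales that majority in chromatin and cytoplasm was lost or nearly so: by ranks the values were 26.2% in nucleoplasm, 47.4% in chromatin and 51.5% in cytoplasm, and over nucleotides above 0 in both files 30.7%, 43.02% and 42.9%. Zeros in this zone had medians of 17.5% in vivo and 40% in vitro in chromatin, and of 31.6% in vivo and 47.9% in vitro in cytoplasm. Their part in the deposited-score values was not tested. Over the last 200 nt the percent higher in vivo was 86.4 in nucleoplasm, 70.0 in chromatin and 94.4 in cytoplasm by deposited scores. By ranks it was 83.9, 60.7 and 80.9, and above 0 it was 85.6, 61.02 and 84.7, so that nucleoplasm lay below cytoplasm on the deposited scale and above it on the others. Each fraction's own set of transcripts was used here. The steeper decline from start to end in vitro was seen in 86.9% of transcripts in nucleoplasm, in 61.1% in chromatin (n = 306) and in 76.7% in cytoplasm (n = 1590), and in cytoplasm the in vivo profile declined as well, with the start above the end in 72.6%.

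Profiles of the same treatment in different fractions were more alike than those of the 2 treatments within nucleoplasm in most transcripts. The nucleoplasm in vivo profile had a median r of 0.866 with cytoplasm in vivo and 0.794 with chromatin in vivo, against 0.693 with nucleoplasm in vitro. In 854 of the 937 transcripts (91.1%) it was nearer to cytoplasm in vivo than to its own refolded RNA, and in 825 (88.0%) nearer to chromatin in vivo. The nucleoplasm in vitro profile had a median r of 0.852 with cytoplasm in vitro and 0.706 with chromatin in vitro. It was nearer to cytoplasm in vitro than to nucleoplasm in vivo in 860 transcripts (91.8%) and nearer to chromatin in vitro in 542 (57.8%).

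The transcripts with the widest differences are given with their values along the RNA, as a description. They were taken from the 2875 higher and 1126 lower members with at least 300 scored nucleotides and 1 direction on all 3 scales and in odd and even nucleotides. ENSMUST00000092048 (7034 nt) averaged 0.498 in vivo, against 0.108 in vitro, with 823 nucleotides scored. All 16 of its scored 50-nt windows were higher in vivo, from 0.176 to 0.686 against 0.0489 to 0.196 in vitro. In cytoplasm the same RNA averaged 0.455 in vivo, against 0.408 in vitro, with 840 nucleotides scored, a smaller gap. Its abundance value was 17.9 in vivo and 13.4 in vitro.

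ENSMUST00000160189 (3159 nt) averaged 0.373 in vivo, against 0.151 in vitro, with 539 nucleotides scored. Of its 11 windows 10 were higher in vivo, and the exception, between nucleotides 3001 and 3050, had 0.0261 in vivo and 0.114 in vitro. Its abundance value was 13.6 in vivo and 13.7 in vitro, so abundance was nearly equal between the files.

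The widest difference toward lower scores in vivo was that of ENSMUST00000038863 (3881 nt), which averaged 0.0473 in vivo, against 0.241 in vitro, with 466 nucleotides scored. Its 8 windows, all between nucleotides 3001 and 3400, were lower in vivo without exception. Between nucleotides 3051 and 3100 the mean was 0.0187 in vivo and 0.411 in vitro. It was lower in vivo in the other fractions too, at 0.0316 against 0.0776 in chromatin and 0.0112 against 0.151 in cytoplasm. Its abundance value was 616 in vivo and 1274 in vitro, against member medians of 20.7 and 18.8, although only 466 of its 3881 nt were scored. Whether its scores come from this RNA along its whole length was not tested.

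ENSMUST00000082388 (955 nt) was scored almost throughout, at 919 nucleotides, with means of 0.145 in vivo and 0.282 in vitro. Of 19 windows 17 were lower in vivo, most widely between nucleotides 801 and 850, where the mean was 0.0715 in vivo and 0.502 in vitro. The exceptions were the windows at 301 to 350, with 0.278 in vivo and 0.148 in vitro, and at the very end, with 0.394 and 0.194. Its profile r of 0.329 was below the 5th percentile of members (0.384). In chromatin its means were nearly equal, at 0.264 in vivo and 0.260 in vitro, and in cytoplasm they were 0.143 in vivo and 0.231 in vitro. Its abundance value was 3155 in vivo and 1840 in vitro, far above the member medians of 20.7 and 18.8. The RNA was not identified here, so whether it belongs to the nucleoplasm or was carried over from another part of the cell was not checked.

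**Figure D5:**
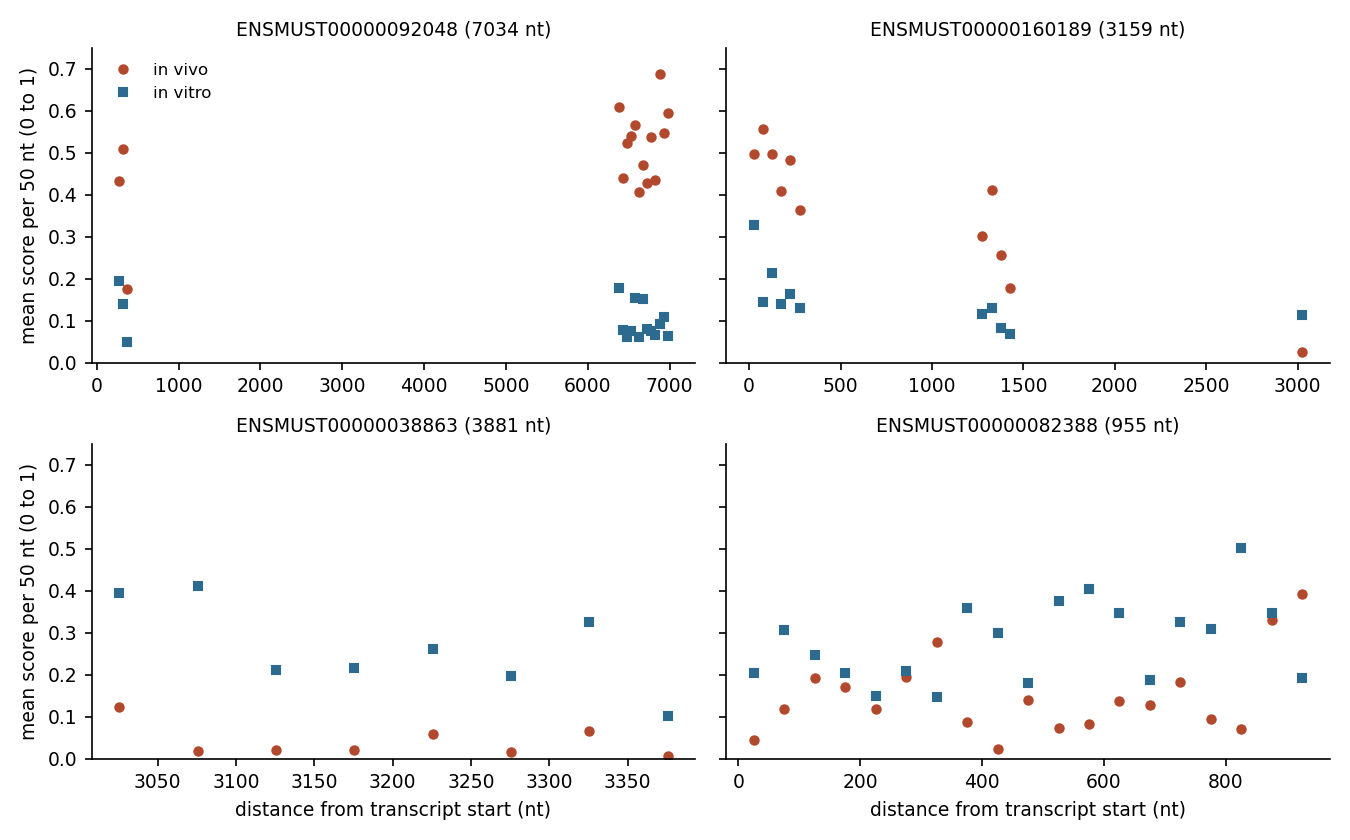
Mean score in 50-nt windows with at least 25 scored nucleotides along the 4 named transcripts, by distance from the transcript start in nt, in vivo and in vitro. The upper pair lies higher in vivo (16 of 16 and 10 of 11 windows) and the lower pair lower in vivo (8 of 8 and 17 of 19 windows); stretches with no points carry no score.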

How the data were processed

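The 6 mES icSHAPE files were read: nucleoplasm, chromatin and cytoplasm, in vivo and in vitro. The score deposited by the authors is a fraction from 0 to 1 per nucleotide, missing where not scored, and was calculated from NAI-N3 and DMSO samples per the labels. Abundance, as deposited, is a signal per transcript of unstated unit. Bowtie2, UMI-tools and mm10 are named per the submitters' processing notes, with no role. In the in vivo nucleoplasm file 3 values of 1 short transcript lay outside 0 to 1 and were left out.

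Means, ranks (average for ties, over all scored nucleotides of a file), correlations and phases were computed with Python 3.11.15, numpy 2.4.6, scipy 1.17.1 and pandas 2.3.3, and checked on simulated data. Named transcripts were those with the widest difference, at most 2 in each direction, with at least 300 shared nucleotides and 1 direction throughout. Members, classes and zones were chosen with earlier results of these data known. The gene lists and marker lists set out for this work were not applied, since no table used here pairs the transcript identifiers with genes. HEK293 and irCLIP files were not used.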

Additional observations from a re-analysis of the deposited data

How the results depend on the processing

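No percent crossed the even mark among the 50 alternatives tried, of which 35 were set at the outset. The other 15, on the end zones, were chosen after seeing the data. Median r has no such mark, and the kept-state and phase shares have no in vivo direction to turn. Of the 50, 24 stayed within the main value's counting interval or, for median r, its interval. Some of these had little or no room to move. All nucleotides scored in each file gave the main 64.7% of 8608 again, because scored positions were shared. The minimum of 200 left the same 1095 transcripts for phase. With the first 100 and last 200 scorable nucleotides left out, the share of members higher in vivo was 58.4% by deposited scores, 53.8% by ranks and 59.4% above 0, median r was 0.557 and 68.3% of nucleotides kept their state. Over nucleotides scored in all 6 mES files (937 transcripts) these were 58.6, 55.9, 56.7, 0.693 and 76.9%, and the phase matched in 99.1%. Within 1.5 times in abundance, ranks gave 57.9 and 68.3% kept their state. Ranks over shared nucleotides gave 61.8, and scores above 0 in each file separately 60.7. With at least 200 shared nucleotides median r was 0.558 and 68.4% kept their state, as did 68.4% with 1 transcript per pattern family. Spearman's rho had a median of 0.494. With a period ratio of at least 10 the phase matched in 100.0% of 441. In the end zones, ranks gave 26.2% (first 200 nt), 50.2% (middle) and 83.9% (last 200 nt), above 0 gave 30.7% and 57.5% for the first 2 zones, and at least 100 nucleotides in the zone gave 87.6% for the last.

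No paired analysis was possible because each group held 1 sample. Between-culture variation and read depth per score are unknown, so none of these values says how far a second culture would differ. Transcripts sharing a 60-nt pattern numbered 116, and most isoforms cannot be grouped without gene names.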
